A study of Mus musculus with 12 samples.

Results

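Promoter methylation of the unperturbed colon epithelium was described from 6 of the 12 libraries of the series, the short-fragment and long-fragment libraries of 3 control mice. The members were chosen by label: 3 control libraries of short MspI fragments (40 to 120 nt) and 3 of long fragments (120 to 220 nt), paired by mouse number, and the 5821 genes with a level in all 6, of 12098 genes in the whole series. Epithelial cells of the colon of C57BL/6 mice on chow gave the DNA, and the controls drank regular water. The other 6 libraries came from 3 C57BL/6 mice in which the methyltransferase Dnmt3b was induced with doxycycline in the water (0.5 g/l for 3 months). They were used here only as separate animals in which a difference between fractions could be looked for again. The labels do not say whether the control mice carried the transgene, and give no age, sex or sequencing batch.

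Reduced representation bisulfite sequencing cuts DNA with MspI, an enzyme that recognises CCGG whether or not its inner CpG is methylated, keeps fragments of a chosen size, and converts unmethylated cytosines so that they are read as thymine. Closely spaced MspI sites, as in the core of a CpG island, give short fragments, and more widely spaced sites give long ones, so the short and long libraries of a mouse sample different CpGs of a promoter. CpG island promoters of most genes are unmethylated in normal tissue. Known exceptions are germline genes silenced in the body, imprinted genes methylated on a single parental copy, and genes of the inactive X chromosome in females.

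Each level is the mean CpG methylation of a gene over its listed promoters, given in percent, with differences between levels in percentage points. The short-fragment libraries listed 10825, 10734 and 10691 genes for mice 1, 2 and 3, and the long-fragment libraries 7278, 7686 and 7966. The tables hold no counts, so the number of reads behind each level is unknown. Mouse 2 stood apart from mice 1 and 3 at X-linked genes in both fractions, with mean levels of 4.36% (short) and 3.84% (long) over 106 X-linked genes, against 33.6% to 38.3% in the 4 libraries of mice 1 and 3. Means over all genes are therefore given with and without those genes.

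Most promoters were nearly free of methylation in both fractions. The mean level was under 10% in both for 5022 genes (86.3%), and 4653 genes (79.9%) were under 10% in each of the 6 libraries. Levels under 1% in all 6 were found for 3022 genes (51.9%), and 250 genes were listed at 0 in all 6. A mean of 50% or more in both fractions was reached by 46 genes (0.790%), and 183 genes lay between 10% and 50% in both. The remaining genes lay in different classes in the fractions. Among them 328 were under 10% in short and between 10% and 50% in long fragments, and 169 had the opposite arrangement. Many of the 183 genes between 10% and 50% in both were X-linked. Of 106 X-linked genes only 3 had means under 10% in both fractions and 2 had means of 50% or more in both. Mouse 2 was under 10% in both fractions for 91 X-linked genes, so most of their means pool unlike mice and are not steady intermediate levels.

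The genes with a level of 80% or more in all 6 libraries numbered 12, of which 5 (Sycp3, Hormad1, Slc25a31, Sohlh2 and Mael) belong to the list of germline genes described further on. They were AU022751, 2700081O15Rik, Sycp3, Tssk1, Fgd5, Hsf5, Zfp516, Hormad1, Slc25a31, Sohlh2, Pbp2 and Mael. Sycp3, a component of the synaptonemal complex that holds homologous chromosomes together, stood at 84.2%, 85.8% and 84.8% in the short-fragment and 97.0%, 86.5% and 94.3% in the long-fragment libraries of mice 1, 2 and 3. Its paired difference of 7.67 points did not pass the test (limma, adjusted p = 0.590). Slc25a31, the testis form of the mitochondrial ADP/ATP carrier, stood at 89.99%, 87.3% and 85.7% in short and 96.8%, 100% and 89.6% in long fragments. Both fractions therefore read these promoters as highly methylated in every mouse.

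A second small set held intermediate levels in every library. Between 20% and 80% in all 6 were 30 genes (0.515%), none of them X-linked. Gnas, Igf2r, Impact and Zrsr1, which are imprinted, were among them, as was Dazl, a germ cell RNA-binding protein. Gnas, the stimulatory G protein alpha subunit, read 51.6%, 42.6% and 49.9% in short and 58.1%, 43.0% and 44.9% in long fragments. Dazl read 47.8%, 38.3% and 40.5% in short and 44.6%, 42.1% and 40.4% in long fragments. Gm1564 was as steady at a higher level, with 62.2% to 64.96% in short and 62.5% to 66.8% in long fragments. Pdx1, a homeobox factor of pancreas and duodenum, read 29.4% to 30.7% in short and 39.9% to 43.9% in long fragments, so its fractions did not overlap. These genes were selected on their levels and get no test.

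The long-fragment libraries gave a somewhat higher mean and a wider spread of levels. Over the 5821 genes the mean was 3.29%, 2.78% and 3.26% in the short-fragment libraries of mice 1, 2 and 3 (3.11% ± 0.285, SD, n = 3) and 4.37%, 3.74% and 4.34% in the long-fragment libraries (4.15% ± 0.357, SD, n = 3). The 3 mice gave differences of 1.08, 0.956 and 1.09 points, a mean of 1.04 ± 0.0723 (SD, n = 3), and the fractions did not overlap. Over the 5710 autosomal genes the mice were closer together, at 2.72% ± 0.0289 in short and 3.73% ± 0.00993 in long fragments (SD, n = 3), with a difference of 1.01 ± 0.0252 points. The exact two-sided sign-flip permutation test over 3 mice gave p = 0.25 for both, the smallest value that 3 pairs allow. Without mouse 2 the difference over all genes was 1.08 points.

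The wider spread had 2 sides. Genes listed at 0 made up 34.7% ± 4.98 of genes in short and 50.9% ± 5.81 in long fragments (SD, n = 3). Genes at 10% to under 50% made up 6.13% ± 0.852 and 9.01% ± 0.459, and genes at 50% or more 1.29% ± 0.0787 and 2.02% ± 0.222 (SD, n = 3). The plot of these shares by mouse shows the same direction in all 3 animals for each class, and the exact sign-flip permutation p was 0.25 each time. The library medians went the other way from the mean, with an average over 3 libraries of 0.0733% in short and 0.0133% in long fragments. Medians of the gene means over 3 mice, used for the lists below, were 0.133% and 0.06% over all genes. Of single genes, 2429 had a higher and 3112 a lower mean in long fragments, and 280 had equal means. Differences under 1 point were found for 3775 genes (64.9%), and differences of 10 points or more in either direction for 572 (9.83%).

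**Figure D1:**
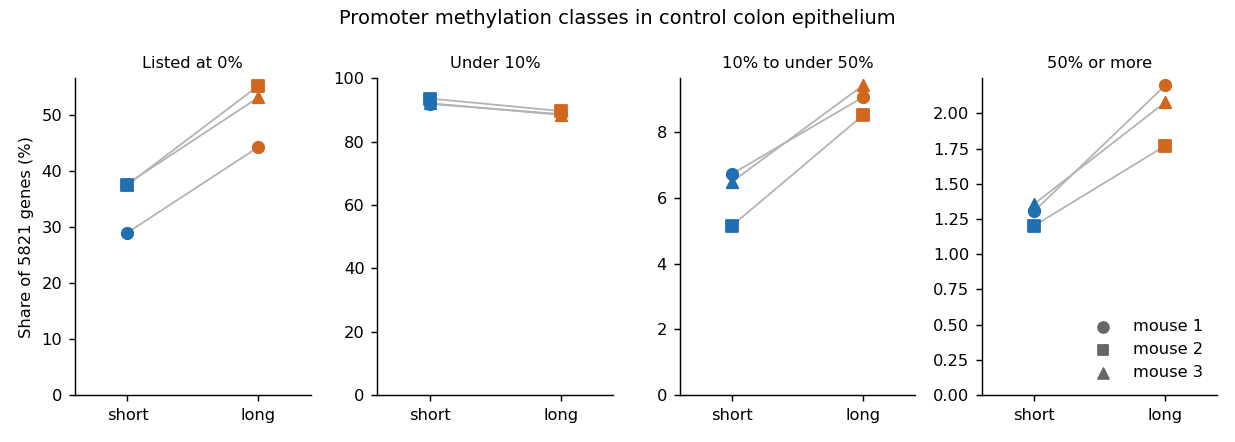
Share of the 5821 genes (vertical axis, percent) at 0%, under 10%, at 10% to under 50% and at 50% or more, in the short-fragment (blue) and long-fragment (orange) library of each control mouse, with a line joining the libraries of a mouse. Genes at 0% and genes at 10% or more both took a larger share of the long-fragment libraries, 50.9% against 34.7% and 2.02% against 1.29% for the first and last panels.

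Across genes the libraries grouped by fragment size and not by animal. Over autosomal genes Pearson's r between libraries of the same fraction and different mice was 0.883 to 0.950 (6 pairs), between the fractions of a single mouse 0.579 to 0.593 (3 pairs), and between fractions of different mice 0.575 to 0.591 (6 pairs). These r describe 5710 genes that share a library and are not replicates. After the fraction means were removed, the libraries of a mouse had deviations with r of 0.256, 0.577 and 0.275 over all genes and of 0.0241, 0.00852 and 0.0724 over autosomal genes. Not every library was closest to its own mouse: short of mouse 1 with long of mouse 3 had r of 0.275 over all genes, and short of mouse 2 with long of mouse 1 had 0.0310 over autosomal genes.

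Single genes differed between fractions by up to nearly the whole scale. With limma and mouse as a block, 37 genes (0.636%) were higher and 39 (0.67%) lower in long fragments at an adjusted p under 0.05, together 76 of 5821 (1.31%). At an unadjusted p under 0.05 there were 806. Among the 924 genes with a mean of 5% to 95% the same fit, adjusted over those genes, called 252 higher (27.3%) and 131 lower (14.2%). With any mouse left out, which leaves 1 residual degree of freedom, limma called no gene (605 to 670 at an unadjusted p under 0.05). So small a fit does not tell how stable the calls are. A trended, robust prior on all 6 libraries also called no gene, and all 24 named calls were lost with it. Without the mouse block 480 genes were called, and on the arcsine scale 416. Every adjusted p below thus depends on the choice of fit. A rule without a test, added after the values were seen, asked for no overlap between the 3 short and the 3 long values and a mean difference of 20 points or more. It took 162 genes (2.78%) with the higher level in long and 74 (1.27%) with the lower, 236 in all (4.05%), of which 32 were also called by limma. Without the 20-point condition 589 (10.1%) and 882 (15.2%) genes had no overlap. Just inside the 20-point line were Cldnd1 (20.05), Htr6 (20.1), Lmtk3 (-20.04) and Myl7 (-20.07), and just outside it Sft2d1 (19.9), Hoxb2 (19.9), Ccdc155 (-19.93) and Tmem59l (-19.7).

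**Figure D2:**
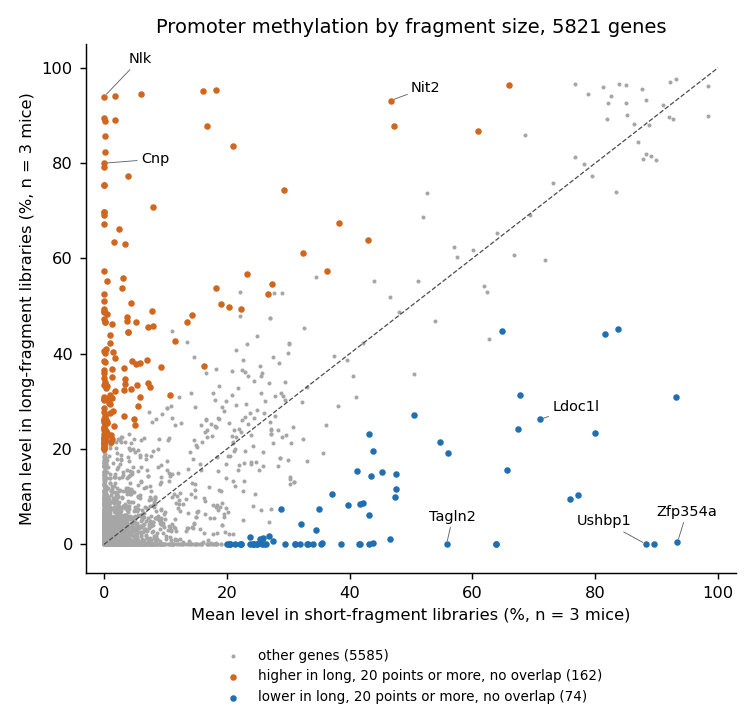
Mean level of each gene over 3 control mice in short-fragment (horizontal axis, percent) and long-fragment libraries (vertical axis, percent), with equality as the dashed line. The 162 orange and 74 blue genes had no overlap between fractions and a difference of 20 points or more, and Nlk and Zfp354a lie close to opposite corners.

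The genes called higher in long fragments were led by promoters that were unmethylated in short and nearly fully methylated in long fragments. Nlk (Gene ID 18099), the Nemo-like kinase that acts on Wnt signalling, stood at 0%, 0.02% and 0.05% in the short-fragment libraries of mice 1, 2 and 3 and at 85.6%, 96.4% and 99.8% in the long-fragment libraries. All 3 long values lay far above all 3 short ones, and the difference was 93.9 ± 3.86 points (SE, limma adjusted p = 0.0477). Pigyl (66268) stood at 1.34%, 2.72% and 1.29% against 99.6%, 91.1% and 91.3% (difference 92.2 points, limma adjusted p = 0.0354). Mfsd5 (106073), a transporter of molybdate, stood at 6.39%, 5.96% and 5.79% against 99.8%, 90.1% and 93.6% (88.5 points, limma adjusted p = 0.0317). Neither pair of ranges overlapped, and both genes lay at opposite ends of the scale in the fractions.

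Acat3 (224530), an acetyl-CoA acetyltransferase, stood at 1.47%, 0% and 4.17% in short and 88.6%, 91.0% and 87.9% in long fragments. Josd2 (66124), a deubiquitinase, stood at 0.15%, 0.31% and 0% against 80.4%, 84.8% and 81.8%. Cnp (12799), a phosphodiesterase abundant in myelin, was at 0 in all 3 short-fragment libraries and at 79.4%, 83.9% and 76.7% in long fragments. These genes were thus alike in pattern, with limma adjusted p of 0.0277, 0.0191 and 0.0277. Usp19, Mzf1, Trim46 and EG240055 followed at smaller size, with short-fragment means of 0.0233% to 3.48% and long-fragment means of 47.3% to 63.1%. Mzf1 encodes a zinc finger factor and Trim46 a protein of the neuronal axon. Nit2 (52633), an omega-amidase, had another pattern, intermediate in short (50%, 47.0% and 43.1%) and high in long fragments (100%, 92.8% and 86.6%).

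The fractions listed different promoters of EG240055, whose current symbol is Neurl1b. A promoter listed in all 6 libraries read 0% to 0.04% throughout, and a second promoter, listed only in the long-fragment libraries, read 90.9%, 98.9% and 93.95%. The gene value in long fragments is the mean of both. This was uncommon, since the set of listed promoters was the same in all 6 libraries for 5754 genes (98.8%), for 74 of the 76 called genes and for 224 of the 236 genes with a gap of 20 points or more.

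The genes called lower in long fragments ran from fully methylated promoters down to small, even differences. Zfp354a (21408), a zinc finger repressor, stood at 96.6%, 99.3% and 84.2% in short and 0%, 1.30% and 0% in long fragments (difference -93.0 ± 3.97 points, SE, limma adjusted p = 0.0479). The neighbours 5430437P03Rik (68251, current symbol Babam1) and Ushbp1 (234395) on chromosome 8 had closely similar levels. 5430437P03Rik, a member of a BRCA1-associated complex, stood at 89.5%, 91.2% and 88.0% in short fragments (limma adjusted p = 0.0135), and Ushbp1 at 90.8%, 90.3% and 83.8% (limma adjusted p = 0.0277). In long fragments both read 0.16%, 0% and 0%, and in the induced mice both read 0%, 0.04% and 0.04%. Their long-fragment values can thus not be taken as separate readings. The 3 genes were the only ones at 80% or more in short and under 10% in long fragments, while 8 genes had the reverse arrangement, among them Zfp341, Map4k2 and Atp5sl, which limma did not call.

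Tagln2 (21346), an actin-binding protein, stood at 55.4%, 52.6% and 59.5% in short and 0.14%, 0% and 0% in long fragments (limma adjusted p = 0.0372). Ldoc1l (223732), a gene derived from a retrotransposon and now named Rtl6, was methylated in both, at 82.35%, 67.0% and 63.6% in short and 37.7%, 20.95% and 20% in long fragments (limma adjusted p = 0.0191). Its mice kept the same order in both fractions. Galnt6, an enzyme that starts O-linked glycosylation of mucins, stood at 35.5% ± 2.78 against 0.210% ± 0.282 (SD, n = 3). Arl4d, Arfgap2, Gpn2, Rnft1, Cops3 and Med17 had short-fragment means of 15.1% to 18.4% with an SD of 0.642 to 1.46 (n = 3) and long-fragment means of 0% to 0.263%. Med17 belongs to the Mediator complex, Cops3 to the COP9 signalosome and Arfgap2 to the COPI coat. The lower calls of this fit were smaller than the higher ones. The median was -7.74 points over 38 of the 39 genes and 32.2 over 34 of the 37, those also listed in all 6 libraries of the induced mice.

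**Figure D3:**
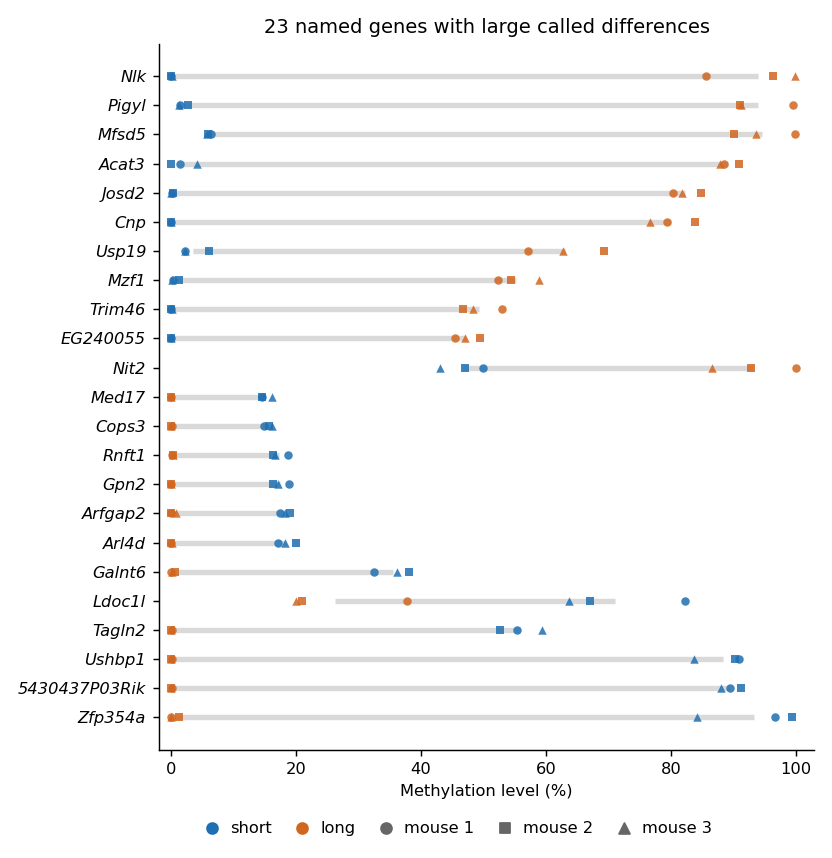
Level (horizontal axis, percent) in each short-fragment (blue) and long-fragment (orange) library for the named genes with large called differences in each direction, with a marker shape for each mouse and a grey bar between the means. No gene has overlapping fractions, and the lower calls from Med17 to Arl4d lie under 20% in short fragments.

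MspI sites were marked in the sequence before the start of some of these promoters. The 250 bases before the RefSeq start on assembly GRCm38.p6 are printed 5′ to 3′ on the strand of the gene, with MspI sites (CCGG, which reads the same on both strands) in capitals, for the largest higher call (Nlk, chr11:78697426-78697675, minus strand), the lower neighbours (Ushbp1, chr8:71395802-71396051, minus strand, and 5430437P03Rik, chr8:71396605-71396854, plus strand) and a gene high in both fractions (Slc25a31, chr3:40708621-40708870, plus strand).
Nlk: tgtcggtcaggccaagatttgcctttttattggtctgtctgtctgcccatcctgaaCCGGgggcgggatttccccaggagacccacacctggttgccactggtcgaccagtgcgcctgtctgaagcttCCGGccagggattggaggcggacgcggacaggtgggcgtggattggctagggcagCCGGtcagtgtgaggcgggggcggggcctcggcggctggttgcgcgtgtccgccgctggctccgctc
Ushbp1: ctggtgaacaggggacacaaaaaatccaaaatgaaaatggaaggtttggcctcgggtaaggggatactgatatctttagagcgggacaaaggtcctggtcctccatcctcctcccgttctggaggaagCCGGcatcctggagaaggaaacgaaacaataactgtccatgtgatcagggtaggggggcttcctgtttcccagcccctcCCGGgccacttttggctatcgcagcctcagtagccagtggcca
5430437P03Rik: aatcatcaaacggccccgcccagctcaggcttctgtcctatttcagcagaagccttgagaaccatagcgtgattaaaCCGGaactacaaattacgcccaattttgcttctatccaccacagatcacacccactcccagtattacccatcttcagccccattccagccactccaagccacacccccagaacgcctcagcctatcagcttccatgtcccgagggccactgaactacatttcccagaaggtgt
Slc25a31: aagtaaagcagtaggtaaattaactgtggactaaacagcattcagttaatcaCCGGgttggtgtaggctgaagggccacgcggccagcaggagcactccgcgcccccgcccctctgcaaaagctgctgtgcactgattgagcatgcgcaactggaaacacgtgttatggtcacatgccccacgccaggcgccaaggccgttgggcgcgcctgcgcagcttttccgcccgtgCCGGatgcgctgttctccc
Nlk has 3 sites, with 72 and 55 nt between cuts, both within the short range, and 20 CpGs. Ushbp1 has 2 sites that are 79 nt apart and 7 CpGs, 5430437P03Rik 1 site and 7 CpGs, and Slc25a31 2 sites that are 179 nt apart, within the long range, and 18 CpGs. Of 32851 RefSeq windows of this length 47.1% hold a CCGG, 16.9% a short and 5.23% a long fragment between neighbouring sites. The window behind the deposited levels is not given in the sources used here and may be wider than this, so a site here is a match of letters only. With the 50 bases after the start added, Nlk has 6 sites and still no long-range fragment between neighbouring sites. In the same way 5430437P03Rik has 2 sites that are 195 nt apart, within the long range. Where the reads of each fraction lie was not tested. A window was found for 78.8% of the tested genes, under the 80% needed to compare sequence features over gene sets, and no such comparison was made.

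Most called differences kept their direction in other animals, while fewer were called there. Of the 37 genes called higher in long fragments 34 were listed in all 6 libraries of the induced mice, and 32 of these had a higher mean in long fragments there. For the lower calls it was 35 of 38. Of all 5309 genes in all 12 libraries 3182 (59.9%) had the same direction in both groups of mice. A call by the same limma fit in induced mice was made for 19 of the 34 and 12 of the 38, where the background over 6127 genes was 2.64% called higher and 1.52% called lower. The median difference over the 34 higher calls was 32.2 points in control and 33.2 in induced mice, and over the 38 lower calls -7.74 and -10.3. The means in induced mice were 0.283% and 97.7% for Nlk, 0.3% and 94.95% for Josd2, 96.0% and 0.0267% for 5430437P03Rik and 57.8% and 0.147% for Tagln2, in short and long fragments. Zfp354a had 91.4% (2 libraries) and 54.6%, and Ldoc1l 80.4% and 64.6%, both with a smaller gap than in control mice.

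The larger set with a 20-point gap gave like counts. In induced mice 146 of 154 genes with the higher level in long fragments and 60 of 63 with the lower kept their direction, and 110 and 40 again had no overlap and a gap of 20 points or more. That rule took 5.55% and 2.17% of all genes in the induced mice. The difference between fractions differed between control and induced mice for 137 of 5309 genes (2.58%, limma interaction, adjusted p under 0.05), for 4 of the 34 higher and 2 of the 38 lower calls, and for 4 of the 154 and 4 of the 63 genes with a 20-point gap.

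Most measured markers of the colon epithelium were nearly unmethylated in both fractions, like most genes tested. Markers that were not listed in all 6 libraries are not described here. Of 66 listed markers 26 were measured in all 6 libraries, and 25 of them (96.2%) were under 10% in both fractions, where the share over all genes was 86.3%. Their mean was 0.282% ± 0.154 in short and 0.599% ± 0.284 in long fragments (SD, n = 3), and the median difference was -0.0367 points, against -0.0133 over all genes. Epcam, the epithelial adhesion molecule, was listed at 0 in all 6. Ezr, which links actin to the microvillus membrane, read 0.02% in 1 library and 0 in the others. Cdx1, an intestinal homeobox factor, read 0% to 0.57% in short and 0% to 1.37% in long fragments. Cdh1, which encodes E-cadherin, was at 4.69% and 5.03% in the short and long libraries of mouse 3 and at 1.08% or less in the others. Ephb2, a receptor that positions cells along the crypt, was the gene outside the 10% limit, with 0.04%, 0.66% and 0.44% in short and 7.36%, 20.03% and 6.96% in long fragments (limma adjusted p = 0.462).

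Lineage genes of secretory and endocrine cells had 11 of 12 measured members of a list of 32 (91.7%) under 10% in both fractions, near the 86.3% of all genes. Neurog3, which sets the endocrine fate, read 4.31%, 4.79% and 6.89% in short and 3.16%, 8.62% and 9.09% in long fragments, and its fractions overlapped. Chga, a protein of endocrine granules, read 0%, 1.58% and 3.37% against 8.90%, 0.33% and 8.33%. Hes1, a Notch target, was at 0.05% or less. Housekeeping genes had 28 of 30 measured members (of 62) under 10% in both (93.3%). Cct4, a chaperonin subunit, and Sfrs1, a splicing factor, were the exceptions, with long-fragment values of 0%, 18.2% and 15.1%, and of 22.2%, 0% and 10%.

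None of the 366 list members measured was called by limma in either direction, where the background was 0.636% and 0.67%. At an unadjusted p under 0.05 there were 45 of them (12.3%), against 806 of 5821 over all genes (13.8%). The lists were unlike in this, with 29 of 128 developmental transcription factors (22.7%) and 5 of 106 X-linked genes (4.72%). Without the X-linked genes it was 40 of 262 (15.3%). Without the mouse block 15 were called (4.10%), against 480 of all genes (8.25%). Of these 15, 10 belong to the 128 developmental transcription factors (7.81%). The differences of list members are therefore given below as values.

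Promoters of genes used in other cell types were mixed. Immune cell markers had 9 of 80 members measured, 5 of them (55.6%) under 10% in both fractions, with means of 17.1% ± 1.29 in short and 13.1% ± 1.96 in long fragments (SD, n = 3). Lat, an adaptor of T cell receptor signalling, read 78.3%, 93.1% and 93.6% in short and 80.4%, 88.2% and 77.1% in long fragments, high in every library. Lyn, a kinase of blood cells, had 14.8%, 11.04% and 9.17% against 0%, 0.06% and 0%. Gata3, a T cell factor, had overlapping ranges, 11.6% to 21.98% and 12.5% to 34.9%. Stromal, muscle and endothelial markers had 12 of 62 members measured and 10 under 10% in both (83.3%). Twist2, a mesenchymal factor, read 2.98%, 7.31% and 2.81% in short and 46.5%, 29.2% and 21.9% in long fragments (limma adjusted p = 0.312), while Des, the intermediate filament of muscle, read 10.6% to 15.9% in short and 1.89% to 5.46% in long fragments. Methylation and not RNA was measured, so these lists do not give a share of other cells, and what such cells add to these levels was not tested.

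Germline and pluripotency genes were the most methylated list in both fractions. Of 97 genes 12 were measured, and 7 were at 50% or more in both fractions, where the background was 46 of 5821 (0.790%). Their median was 72.9% in short and 76.6% in long fragments, against 0.133% and 0.06% over all genes. Hormad1, a meiotic chromosome axis protein, read 93.9%, 89.2% and 81.8% in short and 100%, 83.6% and 96.4% in long fragments. Sohlh2, a germ cell transcription factor, read 89.9% to 92.9% and 85.3% to 100%. Other members were low, such as Cpeb1, a translation regulator of oocytes, at 0.99% to 2.64% and 1.45% to 3.21%. Syce2, a synaptonemal complex protein, was at 0 in all 3 short-fragment libraries and at 5.91%, 7.19% and 9.76% in long fragments (limma adjusted p = 0.143).

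Imprinted genes with allelic methylation at or near a promoter had medians of 48.1% in short and 48.7% in long fragments over the 7 members measured of 31. Zrsr1, a splicing factor gene expressed from the paternal copy, read 45.02%, 77.7% and 64.6% in short and 57.7%, 45.1% and 56.0% in long fragments. Igf2r, the receptor that clears Igf2, read 65.7%, 55.4% and 67.2% against 50.3%, 46.5% and 32.5%, with no overlap (limma adjusted p = 0.484). Nap1l5 read 82.6%, 78.5% and 44.6% in short and 96.7%, 99.1% and 61.7% in long fragments, and mouse 3 was lowest in both. Impact went the other way, with mouse 3 highest in both fractions, 55.2% and 77.4%. Inpp5f was the low member, at 7.06% or less. The mouse of lowest or highest level thus differed from gene to gene.

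The list of other imprinted genes had 16 of 19 measured members (of 51) under 10% in both fractions (84.2%), near the 86.3% of all genes. Methylation of single alleles was not measured, so the split between the imprinted lists was not tested. Cdkn1c, a growth-restraining cell cycle inhibitor, had 34.0%, 28.2% and 25.7% in short and 94.2%, 71.7% and 57.2% in long fragments. Its ranges were far apart and its mice kept their order, with an adjusted p of 0.186 (limma). Igf2, a fetal growth factor, read 0.13%, 0.23% and 2.69% against 7.45%, 13.8% and 17.6%, and Pon2, a paraoxonase, 0.03% or less against 6.6%, 16.8% and 18.4%. Blcap was at 0 in all 6.

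Developmental transcription factors, whose CpG islands carry Polycomb marks in many tissues, had 115 of 128 measured members (of 181) under 10% in both fractions (89.8%, against 86.3% of all genes), with medians of 2.003% and 1.82%. That median is above the 0.133% and 0.06% of all genes. Hoxa2 was the most methylated member, with 76.3%, 73.1% and 85.2% in short and 82.4%, 74.0% and 82.8% in long fragments. Hoxb6 read 49.3%, 36.3% and 30.3% in short fragments and 0% in all 3 long-fragment libraries (limma adjusted p = 0.137). Its cluster neighbour Hoxb5 read 33.4%, 20.7% and 33.0% against 59.8%, 16.1% and 82.1%, with mouse 2 lowest in both. Irx4, a heart ventricle factor, read 1.67%, 0.82% and 0.31% in short and 27.2%, 31.4% and 30.03% in long fragments (limma adjusted p = 0.0552). Foxq1 and Pitx3 were at 0.33% or less.

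Genes of other differentiated tissues were seldom listed, and 7 of 98 were measured. Myl7, an atrial myosin light chain, was intermediate in every library, with 60.7%, 59.6% and 74.2% in short and 45.1%, 49.8% and 39.4% in long fragments (limma adjusted p = 0.463). Actn3, of fast muscle fibres, read 3.33%, 13.8% and 16.7% against 0%, 0.26% and 0%, and Rom1, of photoreceptor discs, 9.21%, 10.9% and 8.52% against 0% in all 3 (limma adjusted p = 0.0687). Nefm, Mbp and Klf1 were at 2.42% or less in all 6 libraries. The plot of lists shows the germline, allelic imprinted and X-linked lists apart from the rest in both fractions.

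**Figure D4:**
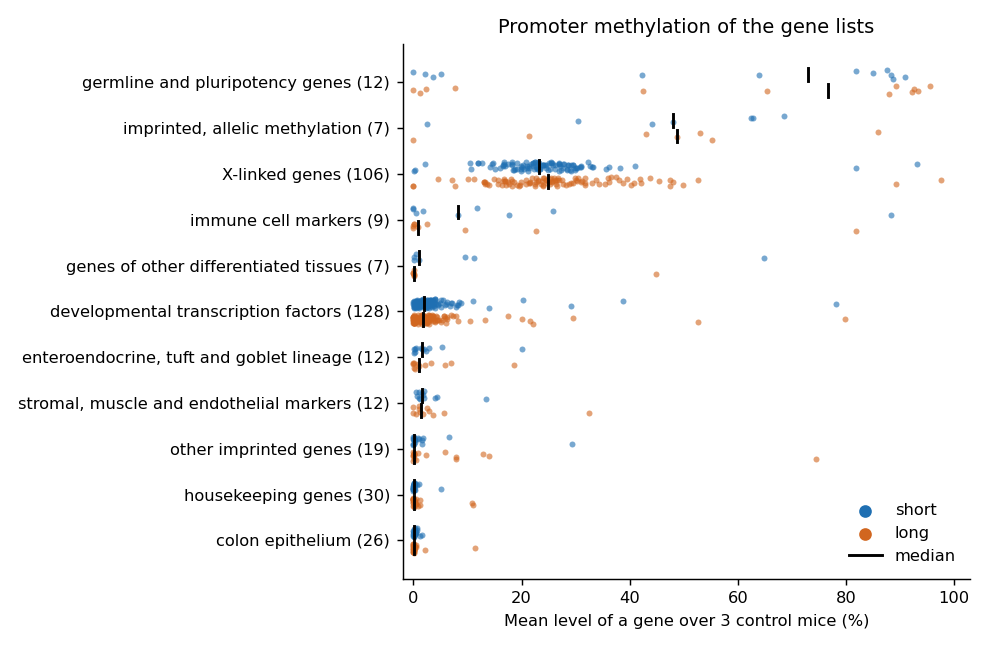
Mean level of each measured gene over 3 control mice (horizontal axis, percent) by gene list, in short (blue) and long (orange) fragments, with the median as a black line and the number of genes in brackets. Germline genes had medians of 72.9% and 76.6%, allelic imprinted genes 48.1% and 48.7%, and the colon epithelium list lies near 0.

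Between mice most X-linked genes ranged widely, with mouse 2 lowest. The median range over the 3 mice was 0.260 points in short and 0.140 points in long fragments over 5710 autosomal genes, and 33.98 and 40.9 points over 106 X-linked genes. Mouse 2 was lowest in both fractions for 99 X-linked genes (93.4%) and for 230 autosomal genes (4.03%). Since 4647 of the autosomal genes were under 10% in all 6 libraries and had little room to vary, genes at 20% to 60% in all 4 libraries of mice 1 and 3 are also given, a choice made after the values were seen. The 20 autosomal genes at that level had median ranges of 10.4 and 9.23 points in short and long fragments, and the 43 X-linked genes 34.4 and 43.6. Mouse 2 was under 10% in both fractions for 37 of those 43 and for 0 of the 20. A range of 20 points or more in both fractions was found for 91 X-linked (85.8%) and 13 autosomal genes (0.228%). Huwe1, a ubiquitin ligase, read 52.0%, 0% and 47.0% in short and 52.5%, 0% and 46.5% in long fragments. Gla, the lysosomal alpha-galactosidase, and Hnrnph2 share their values, 55.3%, 0% and 25.7% in short and 77.9%, 0% and 64.5% in long fragments. Xk, of the red cell Kx antigen, read 48.2%, 0% and 22.2% against 59.1%, 0% and 47.2%. In females 1 X is inactive and its CpG islands are methylated, but the labels give no sex and its part in these levels was not tested.

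Some X-linked genes did not have that pattern. AU022751 read 92.0%, 95.2% and 92.2% in short and 100%, 100% and 92.7% in long fragments, high in mouse 2 as well. Taf7l, a germ cell form of a TFIID subunit, read 88.7%, 78.3% and 78.5% against 98.5%, 74.7% and 94.5%. Ddx3x and Utx, both known to be expressed from the inactive X in mice, were at 0.47% or less in all 6 libraries. Wdr40b had the widest gap between fractions, 32.9%, 3.03% and 25.3% in short and 58.4%, 34.4% and 56.9% in long fragments (limma adjusted p = 0.0630), and mouse 2 was lowest in both. Lancl3 read 29.8%, 0% and 36.7% against 78.2%, 0% and 65.8%. The mean X-linked difference between fractions was 3.67 points in mouse 1, -0.520 in mouse 2 and 4.38 in mouse 3.

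**Figure D5:**
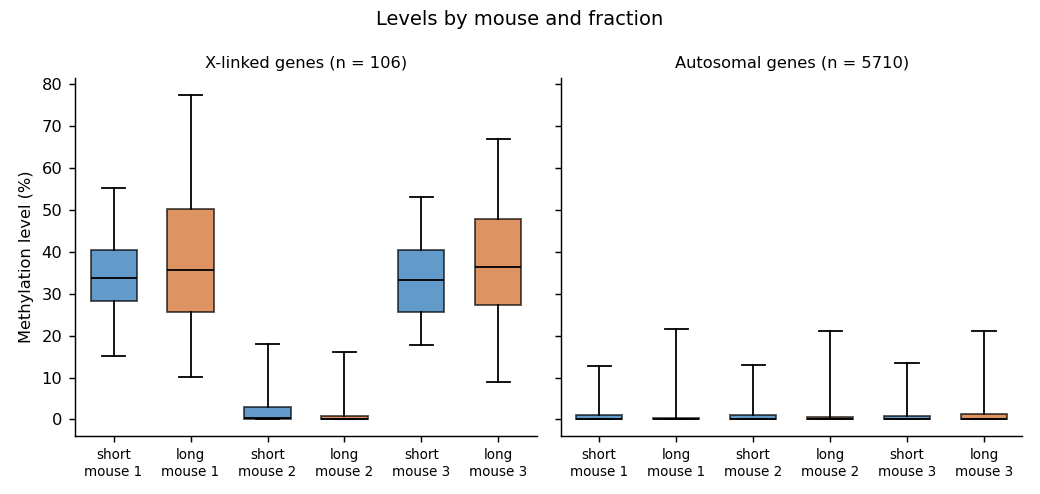
Level (vertical axis, percent) of 106 X-linked and 5710 autosomal genes in each library, in short (blue) and long (orange) fragments, with the median as the black line, the box from the 25th to the 75th percentile of genes and whiskers from the 5th to the 95th percentile. The X-linked boxes of mouse 2 lie near 0 in both fractions, against means of 33.6% to 38.3% in mice 1 and 3, and the autosomal boxes are alike in all 6 libraries.

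Autosomal genes were also picked for a wide range between mice, with the mice in the same order in both fractions. The kept order is thus the rule of choice and not a result, and how often genes keep it was not counted. Hmha1 read 15.6%, 50.8% and 37.1% in short and 42.2%, 74.9% and 51.4% in long fragments. Oxct2a, a testis ketone body enzyme, read 34.4%, 13.1% and 43.2% against 9.5%, 7.14% and 26.0%. Peg12 read 19.9%, 44.6% and 27.0% against 8.98%, 28.6% and 26.5%. Lrrc10, a heart gene, read 48.5%, 39.3% and 26.8% against 77.1%, 65.2% and 60.05%. Mouse 2 was highest at Hmha1 and Peg12, lowest at Oxct2a and between the others at Lrrc10.

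The genes that a fraction listed alone had higher mean levels than those in both, in each of the 3 mice. In all 3 short-fragment libraries and in no long-fragment library were 3191 genes, with a mean of 7.32% ± 0.339 (SD, n = 3), and 5.86% of them had a mean of 50% or more. In all 3 long-fragment libraries and in no short-fragment library were 588 genes, with a mean of 15.0% ± 0.534 (SD, n = 3), and 12.8% of them had a mean of 50% or more. Among the 5821 genes in all 6 libraries those shares were 1.19% for short and 1.65% for long fragments. Over every listed gene the mean was 4.99% in short and 6.03% in long fragments. The 5821 genes thus describe the less methylated part of the promoters that either fraction read.

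Of the methyltransferase genes Dnmt3b, the enzyme induced in the other mice, was the one measured in all 6 control libraries. It read 3.84%, 3.64% and 3.97% in short fragments and 0% in all 3 long-fragment libraries, a difference of -3.82 ± 0.0906 points (SE, limma adjusted p = 0.0277). Dnmt1 read 0.08% or less and Dnmt3a 0.29% or less in the libraries that listed them.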

How the data were processed

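Colon epithelial DNA of 3 control mice was measured in 6 reduced representation bisulfite libraries, a short-fragment and a long-fragment library per mouse. Per the labels' protocols, DNA was digested with MspI, size-selected on a gel, ligated to methylated adapters, bisulfite-treated and PCR-amplified before sequencing on a Genome Analyzer II. Per the file headers, each deposited table gives a gene's mean CpG methylation as a fraction from 0 to 1, and the same for each RefSeq promoter. No aligner, genome build, promoter window, coverage minimum or conversion rate is given in the sources used here. Without coverage no counting interval can be had, and a 0 can stem from few reads.

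Fractions were multiplied to percent, and genes with a level in all 6 control libraries were kept. Long was compared with short with limma 3.58.1 (lmFit and eBayes) in R 4.3.3, with mouse as a fixed block, Benjamini-Hochberg adjustment over all 5821 genes and a threshold of 0.05. The fit was also run on simulated data with known gains in long fragments, without losses and without a mouse effect. That run does not tell how reliable the calls above are. Every adjusted p above comes from the limma fit with the mouse block on the 6 control libraries unless another is named. The pairing comes from the series design, in which each mouse was split into fractions, not from the deviations given above, which did not always match by mouse. Means over a library were compared with exact two-sided sign-flip permutation tests over 3 mice. The same fit was run on the 6 induced libraries, and an interaction fit on all 12. The mice are separate animals. Between replicates 1.51% to 2.53% of values above 0 were identical, so none was taken for a repeat. Genes whose values equal those of another gene in all 6 libraries numbered 1467 (25.2%) and were kept. They include the 250 genes at 0 in all 6, and equal values at or near 0 need not mean a shared promoter. Counts above thus include some shared promoters, whose number is not known.

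A RefSeq gene table of GRCm38.p6 held 12076 (99.82%) of the gene IDs and was used for chromosomes, current symbols and list matching by symbol. Means, exact tests and plots came from Python 3.11.15 (scipy 1.17.1, numpy 2.4.6, pandas 2.3.3, matplotlib 3.10.9).

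Named genes were the 12 largest called differences in each direction, up to 4 highest, 2 lowest and 3 most different members per list, the 8 autosomal and 4 X-linked genes with the widest range between mice in a kept order, and the methyltransferases; genes at a steady level, near the 20-point line or at opposite ends of the scale were named after their values were seen, and a few chosen by that rule are not reported here. The members and lists were chosen with earlier results of these data known. Alternatives were no block, an arcsine scale, a level filter, a trended prior, promoter values, no X and Y genes, unique values, all 12 libraries and each mouse left out.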

Additional observations from a re-analysis of the deposited data

Results flagged for a closer look

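In the limma interaction fit over all 12 libraries, 6 of the genes named above or here had a difference between fractions in control mice that differed from that in induced mice. Over all genes that fit called 137 of 5309 (2.58%), and the share among named genes was not set against it. With a mouse left out the count of calls ran from 1 to 262, so the calls of this fit were unstable. For Cnp the difference was 79.99 points in control and 97.5 points in induced mice (adjusted p = 0.0341). For 5430437P03Rik it was -89.5 and -95.97 points (adjusted p = 0.0479), and for Gpn2 -17.4 and -30.8 points (adjusted p = 0.0146). For Lmtk3 it was -20.04 and -61.75 points (adjusted p = 0.0186). These 4 kept their direction and were larger in size in the induced mice. For Cdh1 it was 0.463 and 4.09 points (adjusted p = 0.0224), with long-fragment means of 2.06% and 4.31%. For Pdgfra it was -0.473 and 52.97 points (adjusted p = 0.0207), and in control mice the fractions listed different promoters of that gene.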

How the results depend on the processing

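Of 5821 genes 76 were called with the mouse block. Without the replicate block 480 were called (75 shared), on the arcsine scale 416 (71 shared), among the 924 genes with a mean of 5% to 95% 383 (51 shared), with unique values 138 (75 shared) and with all 12 libraries 259 (54 shared). A trended, robust prior gave 0 calls (817 at an unadjusted p under 0.05, limma), as did leaving out any mouse (0 to 0), with 1 residual degree of freedom. The gap rule took 236. The interaction count was 137, 240 without the replicate block and 1 to 262 with a mouse left out: 1, 3 and 25 without control mouse 1, 2 and 3. The mean difference of 1.04 points was 6.20 among genes at 5% to 95% and 1.20 with unique values, and 1.02 to 1.08 with a mouse left out. The exact permutation p was 0.1 without pairing. The share of genes at 50% or more was 3.21% (short) and 4.03% (long) over every listed gene. Among the 5821 genes 0.561% and 0.842% were at 80% or more. EG240055 turned from 47.3 to -0.0233 points on the promoter listed in all 6 libraries. Promoter values (102 calls), no X and Y genes (85) and the interaction on the arcsine scale (98) stayed within 1.5 times. All 24 named genes that were called lost the call in those 2-mouse fits and with the trended prior, while their differences kept direction. Where not named, the cause was not tested. Unknown coverage limits every level.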
